A study of Mus musculus with 8 samples.

Results

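Droplets of MC38 tumors that carried almost no leukocyte transcripts were examined: 449 cells out of 14512 barcodes that passed the same depth filters in the whole series. They were chosen by measured values, namely at least 5000 gene UMIs (unique molecular identifiers, each counting 1 captured transcript), at least 200 genes, at most 25% mitochondrial UMIs, at least 20 hashtag UMIs, and less than 0.1% of UMIs from Tyrobp, Fcer1g, Laptm5 and Coro1a together, which are genes of leukocyte signaling, lysosome and cytoskeleton. They are called immune-gene-low cells here, a name taken from the rule, since no library of MC38 cells alone was among the samples. The 7899 tumor barcodes with a host assignment at or above the limit, called the other tumor cells, served only for comparison.

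The study sorted live CD45+CD11b+Ly6Chi cells, the phenotype of monocytic myeloid-derived suppressor cells, from subcutaneous MC38 colon carcinomas and from blood of C57BL/6J mice aged 8 to 10 weeks. The methods name male and female mice and do not give the sex of the mice in each pool. Tumors were not irradiated (control, a sham treatment in the methods) or received 20 Gy of ionizing radiation (IR), local to the tumor, 3 days before collection. Hosts were Ythdf2 fl/fl mice (WT) or Lyz Cre+;Ythdf2 fl/fl mice (cKO), so all hosts carried the floxed allele, Cre was driven from a lysozyme locus active in myeloid cells, and MC38 cells themselves carried no deletion. Each combination of genotype, tissue and treatment was a pool of 5 mice, and antibodies to CD45 and MHC class I carried the hashtag B0301 for WT or B0302 for cKO into 1 droplet library per tissue and treatment.

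Cells were assigned to WT hosts where B0301 was at least as high as B0302, and to cKO hosts where B0302 was at least 4 times B0301. This gave 106 of 1889 cells (5.61%, 95% exact Clopper-Pearson interval 4.62 to 6.75) in WT-host control, 247 of 1761 (14.0%, 12.4 to 15.7) in cKO-host control, 54 of 2115 (2.55%, 1.92 to 3.32) in WT-host IR and 42 of 2583 (1.63%, 1.17 to 2.19) in cKO-host IR. The sort gate, the UMI minimum and the hashtag rule all set these shares, so they are not abundances in the tumor. Another 24 control and 11 IR barcodes lay between the hashtag limits and were not used. Each group was 1 pool in 1 library, and all intervals cover counting error only, not the variation between mice.

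Several properties of the libraries bear on every comparison. All 353 control and 96 IR immune-gene-low barcodes also held at least 500 UMIs in the other tumor matrix, with a median of 0.458 and 0.593 of the UMIs in their own, and the other tumor cells showed the same (0.455 and 0.59). Treatment was therefore read from the matrix that held the hashtags; only 7 control and 0 IR cells had 20 hashtag UMIs in the other one as well. The hashtags of WT-host control cells were mixed, with a median of 362.5 UMIs of B0301 and 140 of B0302, and only 24 of the 106 cells exceeded a 4-fold margin. The targeted gene also went against the host label: Ythdf2, encoding a reader of N6-methyladenosine, stood at 59.8 and 55.7 UMIs per 1000000 gene UMIs (CPM) in the other tumor cells of WT hosts (control and IR) and at 529 and 371 CPM in those of cKO hosts. The myeloid lysozyme gene Lyz2 ran the other way, at 8297 and 6554 CPM in WT hosts and 142 and 154 CPM in cKO hosts, while its relative Lyz1 was at 6.63 and 6.60 against 221 and 117 CPM. The cells of the hashtags thus differed in all 3 genes of the label. The sources used here do not say which part of the gene is excised, and 3′ counts from outside it would check nothing, so host names below stand for what the hashtag labels say. In immune-gene-low cells Ythdf2 was at 55.8, 49.95, 62.6 and 66.6 CPM in WT-host control, cKO-host control, WT-host IR and cKO-host IR, an order of groups used for all values that follow.

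As background, fibroblasts and other mesenchymal cells secrete collagens and proteoglycans and lack the keratin pairs and cell junction proteins of epithelia, while carcinoma lines in culture can lose epithelial genes and take up mesenchymal ones. Type I interferons signal through the receptor IFNAR, and interferon gamma through IFNGR, to switch on antiviral genes, guanylate-binding proteins and antigen presentation. Ionizing radiation breaks DNA, which activates p53 and its targets and halts cells before mitosis. Promoters of many interferon genes hold the letters GAAA, 2 further bases and GAAA again, the core of the interferon-stimulated response element.

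Immune-gene-low cells expressed a broad matrix program. The 20 genes of the fibroblast list summed to 6507 CPM, against 76.5 CPM in the other tumor cells, and stayed between 6275 and 6966 CPM in the 4 groups. Sparc, a matrix glycoprotein, was at 1545, 1707, 1799 and 1559 CPM and was detected in 431 of 449 cells (96.0%), against 2.24% of the other tumor cells. Col3a1, encoding type III collagen, was at 1337, 1096, 1119 and 1082 CPM in 91.5% of cells, against 1.63%. Col1a1, encoding the main chain of type I collagen, was far lower, at 67.0, 135, 106 and 78.2 CPM in 47.9% of cells, against 0.430%. These detection shares compare a median of 28294 UMIs per immune-gene-low cell with 7826 per other tumor cell, and they had no test, because depth differs and the selection rule used the same cells.

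Further matrix genes stayed within 2-fold between the groups. The proteoglycan Dcn was at 970, 765, 1088 and 776 CPM and Bgn at 713, 748, 820 and 690 CPM, and neither differed by a log2 ratio of 1 in any comparison. The gelatinase Mmp2 lay between 327 and 398 CPM, and the inhibitor Timp3 between 207 and 255 CPM. Other genes raised against the other tumor cells were Tm4sf1, a tetraspanin-like surface protein (881 against 5.49 CPM), Cald1, an actin-binding protein (889 against 7.73), Cd34, a surface sialomucin (486 against 5.52), Tubb3, a tubulin (420 against 2.10), and Has1, a hyaluronan synthase (355 against 4.27).

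Transcription factors of mesenchymal and embryonic tissue were high. Sox9 stood at 445, 470, 431 and 360 CPM, the chromatin factor Hmga2 at 205, 224, 205 and 203 CPM, Twist1 at 149, 163, 183 and 140 CPM, and Prrx1 at 135, 129, 151 and 165 CPM. Each was at most 2.76 CPM in the other tumor cells. Vim, a mesenchymal intermediate filament also made by leukocytes, was 4315 CPM against 5080.

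Several defining fibroblast and epithelial genes were at or near 0. Lum was at 1.14 CPM, Fap at 0.712, Thy1 at 1.92 and Acta2 at 4.06, while Pdgfra reached 11.1 and Pdgfrb 35.5 CPM. Of the 22 genes of the epithelial and carcinoma list, 11 had no UMI in 14043784, and these included Krt8, Krt18, Krt20 and Epcam. No UMI in that total allows up to 0.214 CPM. Cdh1 (E-cadherin) was at 1.07 CPM and Krt19 at 0.712 CPM. Hmga2 is also on that list and was its exception, at 215 CPM over all cells of the 221 CPM of the whole list. Krt14, a basal keratin outside that list, was at 245, 196, 199 and 214 CPM. The cells thus carried Col3a1, Sparc and, at a lower level, Col1a1, with little Lum, Fap or Thy1 of the same fibroblast list. They lacked the common epithelial set and carried Hmga2 and Sox9.

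The surface genes of the sort were low with 1 exception. Ptprc, encoding CD45, was at 5.55 CPM against 566 in the other tumor cells, Itgam, encoding CD11b, at 5.34 against 566, and Ly6c2 at 5.34 against 937. Ly6c1, which encodes another Ly6C protein, was at 505, 409, 804 and 809 CPM against 7.75. The class I genes H2-K1 (1352 against 1626 CPM) and H2-D1 (2025 against 2369 CPM), whose products the hashtag antibodies bind, were of the same order in both populations.

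**Figure D1:**
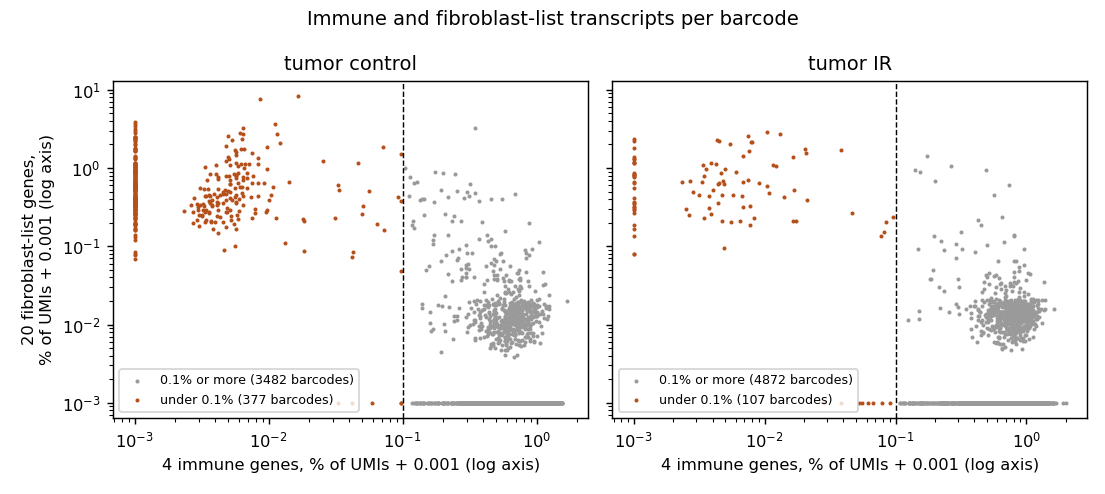
Each point is a barcode of a tumor matrix that passed the depth filters; the horizontal axis gives the 4 immune genes of the selection rule and the vertical axis the 20 fibroblast-list genes, both as percent of UMIs plus 0.001 on log axes, and the dashed line marks the 0.1% limit. Barcodes under the limit (377 control, 107 IR) mostly hold 0.1% to 1% of fibroblast-list UMIs, while those above it are mostly at or near 0.

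The plot of immune against fibroblast-list transcripts shows a sparse zone around the limit. The 21 barcodes just inside it (0.05% to 0.1%) held a median of 0.136% of UMIs from the fibroblast list, and the 57 just outside (0.1% to 0.15%) a median of 0. All barcodes under the limit had a median of 0.484%. No UMI of the 4 rule genes was found in 48, 132, 12 and 14 cells of the 4 groups.

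Y-linked transcripts set immune-gene-low cells apart from the other tumor cells. Ddx3y, Eif2s3y, Kdm5d and Uty, 4 broadly expressed genes of the Y chromosome, summed to 2.12 CPM (0.854 to 4.38), 1.90 (1.04 to 3.18), 4.55 (2.08 to 8.63) and 11.6 (6.62 to 18.8), against 129, 94.4, 121 and 140 CPM in the other tumor cells of the same groups. The intervals of the 2 populations did not overlap in any group. No Y-linked UMI was found in 427 of 449 cells (95.1%), and Xist, the RNA of the inactive X chromosome, had 1 UMI in all of them. Barcodes with 10 to 100 UMIs, taken as free RNA, held 123 and 114 Y-linked CPM in tumor control and tumor IR.

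**Figure D2:**
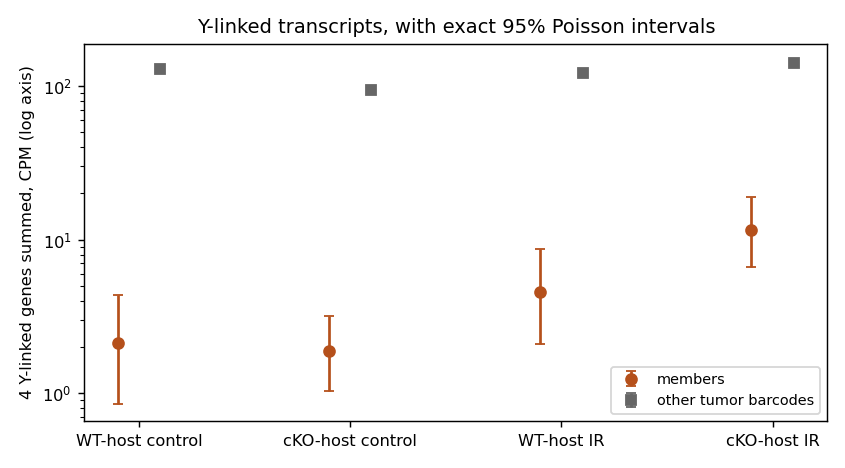
Summed CPM of 4 Y-linked genes on a log axis, by group, for immune-gene-low cells (circles, with exact 95% Poisson intervals) and the other tumor cells (squares, intervals smaller than the symbol). The circles reach 11.6 CPM at most and the squares start at 94.4 CPM.

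The 6 cells with most Y-linked transcripts differed as a sum from the cells without any, in part through 1 cell. The 6 cells with at least 3 Y-linked UMIs held 8 of the 10 Fap UMIs of all immune-gene-low cells, and had 1744 CPM of Col1a1, 43.5 CPM of Thy1, 48.3 CPM of Hmga2 and 62.8 CPM of Sox9. The 427 cells without any had 81.3, 0.820, 217 and 451 CPM of the same 4 genes. All 17 Fap and Thy1 UMIs of the 6 cells came from 1 cKO-host control cell, with 9.79% of UMIs from matrix genes. The Col1a1 sum was not split by cell. As given below, 1 cell held much of the Col1a1 UMIs of cKO-host control, so this sum may rest on 1 cell as well. The WT-host control cell among the 6 had no Fap or Thy1 UMI and 0.492% of UMIs from matrix genes. These 6 cells also carried more Tyrobp (203 against 12.4 CPM) and Srgn (865 against 44.1 CPM), both leukocyte genes. They were grouped after their values were seen, and 6 cells allow no more than this description.

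Clustering divided the 484 barcodes under the immune limit into 5 clusters at a Leiden resolution of 0.5, which came to 11 at resolution 1.0. Cluster 1 (161 barcodes, median 42080 UMIs) was led by Hist1h1b, Birc5, Top2a, Ube2c and Mki67, genes of DNA packaging and mitosis. Cluster 2 (120) was led by Col3a1, Gsn, Igfbp7, C3 and Col1a1, and its fibroblast-list genes summed to 15377 CPM. Cluster 3 (107) was led by the chaperone genes Hspa1b and Cryab, the metallothionein Mt1 and the hypoxia genes Bnip3 and Ankrd37. Cluster 4 (58) was led by Ung, Mcm5, Mcm4 and Gins2, genes of DNA replication and base repair.

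Fibroblast-list sums were high in every cluster. The 20 genes summed to 4343, 15377, 5099, 4437 and 2626 CPM in clusters 1 to 5, against 76.5 CPM in the other tumor cells. Sox9 was at 415 CPM and Hmga2 at 184 CPM in cluster 5. Cluster 5 (38 barcodes, 28 of them in a group, median 7535 UMIs) was led by Igkc, Jchain, Igha, Ccl5, Srgn, Il1b and Ccl22, genes of antibody-secreting and other leukocytes, and its pan-leukocyte list stood at 2222 CPM against 169 to 234 CPM in clusters 1 to 4. That list of 10 genes holds the 4 rule genes, whose level the selection itself limited; Srgn, which it did not limit, was at 1033 CPM against 12.7 to 49.1. It held 6, 8, 6 and 8 cells of the 4 groups. A single cell of WT-host IR supplied 5407 of the 5409 UMIs of the plasma cell list, and a single cell of cKO-host IR supplied 300 of the 304 UMIs of the endothelial list. Results are therefore also given without cluster 5 where it moved them.

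Irradiation was compared with control within each host to describe how these cells differed 3 days after 20 Gy. Genes with at least 100 UMIs over the 2 groups compared were counted, and a log2 ratio of CPM of at least 1 in either direction marked a difference. A gene low in 1 group could reach this minimum through the other group alone, so low genes were counted mainly where they differed. With 1 pool per group there was no replicate check and no test. In WT hosts 135 of 5751 genes passed this limit (2.35%), 123 of them higher with IR (2.14%) and 12 lower (0.209%). In cKO hosts 186 of 7273 passed (2.56%), 131 higher (1.8%) and 55 lower (0.756%). With TMM scaling, which moved the median gene by −0.08 in the cKO hosts, that split became 111 higher and 76 lower. It was 192 and 138 with each cell weighted equally and 33 and 54 in cluster 1 alone. The WT-host split was 115 higher and 15 lower with TMM scaling and 67 and 16 with a 4-fold hashtag margin. It was 80 and 27 in cluster 1 alone and 350 and 152 at a minimum of 20 UMIs.

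The genes higher with IR in both hosts were mainly interferon and MHC genes. Of 5746 genes counted in both hosts, 49 were at least 2-fold higher in both and 2 lower in both, together 0.888%. Of the 49, 28 were on the interferon response, interferon gamma or MHC class I lists. In that order, these lists held 20, 10 and 15 of the 5751 genes counted in WT hosts. They held 26, 10 and 17 of the 7273 genes counted in cKO hosts. Their joint share of the 5746 genes was not calculated, and they were chosen with earlier results of these data known. Without cluster 5, 50 genes were higher in both hosts and 1 lower, of 5593. The control and IR libraries were each shared by the hosts, so the hosts are not independent repeats.

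Members of the interferon response list differed in the same direction in both hosts. Of its 34 genes, 20 were counted in WT hosts, with 16 higher and a median log2 ratio of 1.85. In cKO hosts 26 were counted, with 23 higher and a median of 1.71. The median over all counted genes was 0.00 and 0.01. The list summed to 1649, 1827, 4759 and 4687 CPM. In the other tumor cells its median log2 ratios were 1.72 and 2.46, with 30 and 34 of 34 genes higher. No share over all genes is given for those cells, so counts in them, here and below, have no background beside them.

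Isg15, a ubiquitin-like antiviral modifier on chromosome 4 (156199424 to 156200818, mm10), was at 82.5 CPM in WT-host control, 119 in cKO-host control, 549 in WT-host IR and 558 in cKO-host IR. The log2 ratio with IR was 2.73 (2.54 to 2.93) in WT hosts and 2.23 (2.09 to 2.37) in cKO hosts. Ifit3, which binds viral RNA complexes (chromosome 19, 34583531 to 34588731), was at 9.71, 16.1, 78.3 and 114 CPM, with log2 ratios of 2.96 and 2.80. Single cells weighed heavily on Ifit3, since 1 cell gave 65.6% of its UMIs in WT-host control and 34.2% to 39.5% in the other groups.

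Bst2, the membrane tether tetherin, was found in most irradiated cells. It was at 237, 246, 955 and 803 CPM, a log2 ratio of 2.01 (1.89 to 2.13) in WT hosts and 1.70 (1.60 to 1.81) in cKO hosts, and was detected in 50 of 54 and 40 of 42 irradiated cells. Ifitm3, a membrane protein that blocks viral entry, reached the highest level of the list, at 903, 973, 1694 and 1654 CPM, but its log2 ratios of 0.91 and 0.76 stayed within the limit. The sensor Zbp1 was at 22.4, 23.01, 104 and 87.6 CPM.

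Irf7, a transcription factor of the type I response, was at 14.6, 21.3, 70.7 and 68.8 CPM, with log2 ratios of 2.25 (1.80 to 2.78) and 1.68 (1.31 to 2.07). The receptors did not pass the limit: Ifnar1 was at 23.7, 20.2, 23.2 and 20.3 CPM, and Ifngr1 at 57.0, 53.7, 65.7 and 57.2 CPM. Of the ligands, Ifnb1 had 2 UMIs in all immune-gene-low cells, and all 15 UMIs of Ifng came from 1 cell of cKO-host control.

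Genes typical of interferon gamma were higher as well. Of 17, 10 were counted in each host and 8 of them were higher in each, with medians of 1.99 and 1.32. Here too, genes low in control could be counted through the IR group. All 17, counted or not, summed to 777, 1127, 3024 and 2641 CPM. In the other tumor cells the medians were 0.68 and 0.83, with 2 and 6 of 16 counted genes higher, without a share over all genes. The chemokine Cxcl10, a T cell attractant (chromosome 5, 92346638 to 92348889), was at 229, 420, 1070 and 943 CPM, with log2 ratios of 2.22 (2.10 to 2.35) and 1.17 (1.07 to 1.26), and 1 cell gave 40.8% of its UMIs in WT-host control. Its relative Cxcl9 was at 14.6, 49.7, 242 and 105 CPM, with 4.02 and 1.08, but a single cell gave 55.7% of its UMIs in WT-host IR.

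GTPases that attack pathogen vacuoles were among them. Gbp2 (chromosome 3, 142620602 to 142638008) was at 74.0, 79.3, 281 and 220 CPM, with log2 ratios of 1.92 and 1.47. Igtp was at 33.7, 30.9, 133 and 139 CPM, with 1.97 and 2.16. Iigp1 was at 41.0, 61.7, 295 and 340 CPM, with 2.83 and 2.46, against 0.62 and 0.34 in the other tumor cells.

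Genes of antigen presentation had smaller ratios. Of 19 MHC class I pathway genes, 15 and 17 were counted, 7 were higher in each host, and the medians were 0.97 and 0.76. The class I heavy chain genes themselves stayed within the limit: H2-K1 was at 1237, 1163, 1817 and 1973 CPM (0.55 and 0.76) and H2-D1 at 1848, 1771, 2687 and 2862 CPM (0.54 and 0.69). B2m, the class I light chain, was at 2049, 2108, 2853 and 3061 CPM (0.48 and 0.54). The peptide transporter gene Tap1 (52.2, 48.3, 110 and 116 CPM) and the immunoproteasome gene Psmb9 (64.3, 65.5, 156 and 173 CPM) passed it in both hosts.

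Cd274, encoding the checkpoint ligand PD-L1, was rare. It was at 4.55, 5.82, 32.3 and 31.9 CPM, from 15, 43, 64 and 44 UMIs, under the 100 UMIs needed in each irradiation comparison, so it was not counted. Without cluster 5 it was at 2.85, 4.38, 19.3 and 21.7 CPM. Among the genes higher in both hosts that were on none of the interferon or MHC lists, the secreted lipid carrier Apod was at 6.37, 22.1, 53.6 and 77.5 CPM, with 62.6% of its UMIs from 1 cell in cKO-host IR. Hmox1, heme oxygenase, owed 80.0% of its UMIs in WT-host IR to 1 cell, and without cluster 5 its log2 ratios of 0.57 and 0.93 passed the limit in neither host.

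**Figure D3:**
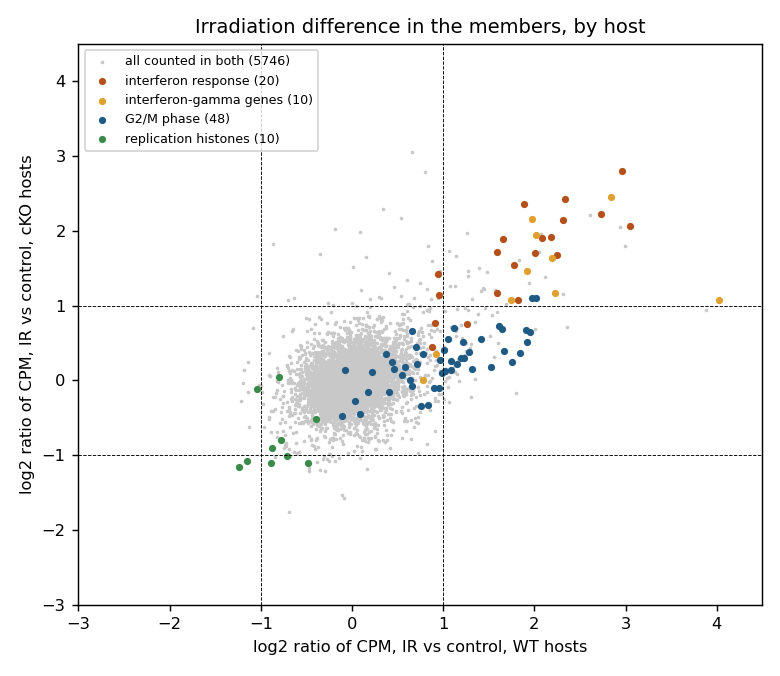
Each point is a gene counted in both hosts (5746); the axes give the log2 ratio of CPM, IR against control, in WT hosts (horizontal) and cKO hosts (vertical), and dashed lines mark ratios of 1 and −1. Interferon genes lie in the upper right, G2/M genes reach past 1 mainly on the WT axis, and replication histone genes lie below 0 in most cases on both.

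Leukocyte transcripts moved with the irradiation comparison in cKO hosts. The 10 pan-leukocyte genes summed to 279, 229, 322 and 487 CPM, log2 ratios of 0.21 in WT and 1.09 in cKO hosts, with all 10 above 0 in every group, against 14204 to 19384 CPM in the other tumor cells. The 4 rule genes are part of this list, so its low level was in part fixed by the selection. Without cluster 5 the interferon medians were 1.89 and 1.81, and the genes past the limit numbered 120 and 152. The plot of the interferon list per cell shows the same in single cells: the median share of UMIs was 0.119%, 0.112%, 0.316% and 0.285%, and the interquartile ranges of control and IR cells overlapped.

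**Figure D4:**
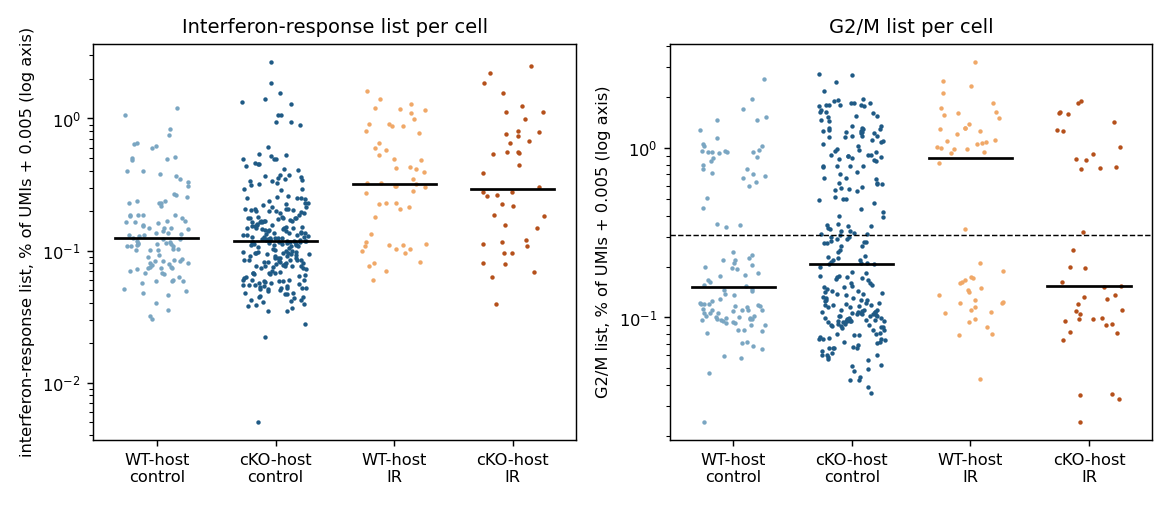
Each point is an immune-gene-low cell; the vertical log axes give the interferon response list (left) and the G2/M list (right) as percent of UMIs plus 0.005, by group, with horizontal bars at the medians and a dashed line at the 0.3% limit for G2/M-high cells. Irradiated cells lie higher on the left (medians 0.316% and 0.285% against 0.119% and 0.112%), and on the right the cells of each group fall above and below the limit with few near it.

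Promoters of the genes higher in both hosts often held the interferon response core. Windows of 300 bases around transcription starts (RefSeq, GRCm38.p6) were found for 39 of the 49 genes. The core of GAAA, any 2 bases and GAAA, searched on either strand, occurred in 18 of them (46.2%), against 3.39% of all 20595 promoters and 3.35% of 4563 promoters of genes counted in both hosts. A match describes the letters in this window and is not a binding site. The 30 bases around the match are shown for genes whose values are given above, 5′ to 3′ in the direction of the gene, with the match in capitals (TTTC, 2 bases and TTTC are the same core read on the other strand).
Isg15, chr4:156200865-156200894, minus strand: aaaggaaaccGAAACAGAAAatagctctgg
Ifit3, chr19:34583397-34583426, plus strand: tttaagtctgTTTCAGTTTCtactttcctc
Bst2, chr8:71537577-71537606, minus strand: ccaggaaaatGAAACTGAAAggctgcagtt
Cxcl10, chr5:92349083-92349112, minus strand: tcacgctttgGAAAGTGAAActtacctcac
Gbp2, chr3:142620594-142620623, plus strand: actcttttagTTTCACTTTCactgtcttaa
Igtp, chr11:58199512-58199541, plus strand: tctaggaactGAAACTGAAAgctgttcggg

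These 6 matches ended 24 to 203 bases before the RefSeq transcription start. The gene positions given above are from GENCODE, whose Gbp2 starts further upstream, so the Gbp2 match lies inside that gene model. The sites of Isg15, Bst2, Cxcl10 and Igtp read GAAA in the direction of the gene, and those of Ifit3 and Gbp2 read TTTC. Isg15 had 3 upstream matches, Ifit3 and Bst2 had 2 each, and the others had 1.

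Cell cycle genes were described with a G2/M list of 53 genes and an S phase list of 41. In WT hosts 24 of 48 counted G2/M genes were at least 2-fold higher with IR, with a median log2 ratio of 1.0, and in cKO hosts 2 of 50, with a median of 0.25. The list summed to 5350, 6427, 9879 and 7576 CPM. In the other tumor cells the medians were −0.72 and −2.37, with 14 of 32 and 29 of 42 counted genes at least 2-fold lower. These counts again have no share over all genes of those cells beside them. The WT-host median was 0.48 with the 24 control cells past a 4-fold hashtag margin and 0.38 in cluster 1 alone. S phase genes had medians of −0.20 (1 of 32 lower) and −0.01 (2 of 37 lower).

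Ube2c and Aurka passed the limit in both hosts. Ube2c, the ubiquitin carrier of the anaphase-promoting complex (chromosome 2, 164769898 to 164778822), was at 233, 334, 944 and 720 CPM, with log2 ratios of 2.02 (1.90 to 2.14) and 1.11. Aurka, a spindle kinase, was at 21.5, 31.0, 85.9 and 66.6 CPM, with 1.98 and 1.10. Ccnb1, cyclin B1, was at 34.9, 56.0, 132 and 89.8 CPM, with 1.91 (1.60 to 2.25) in WT hosts and 0.68 (0.38 to 0.97) in cKO hosts.

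Other proliferation genes had smaller ratios. Cdk1, the mitotic kinase, was at 120, 144, 249 and 211 CPM (1.05 and 0.55), and Top2a, a topoisomerase, at 287, 274, 470 and 320 CPM (0.71 and 0.23). Mki67, the proliferation marker, was at 195, 167, 228 and 180 CPM, with log2 ratios of 0.22 and 0.11. Pcna, the replication clamp, was at 267, 234, 167 and 239 CPM (−0.68 and 0.03).

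Replication histone genes had negative medians. Of 16 genes, a list chosen after the data had been seen, 10 were counted in WT hosts with 3 lower and a median of −0.84, and 11 in cKO hosts with 6 lower and a median of −1.01. Without cluster 5 the cKO count was 3 of 11, with a median of −0.92. Hist1h1b, a linker histone, was at 289, 211, 129 and 99.9 CPM (−1.16 and −1.07), although 1 cell held 63.0% of its UMIs in cKO-host IR, and its cKO-host ratio was −0.97 without cluster 5. Hist1h2ae, a core histone, was at 128, 123, 54.1 and 55.0 CPM (−1.24 and −1.16). Near-identical histone copies may share reads, so single histone genes are uncertain. In the other tumor cells the medians were −0.76 and −1.64.

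Cells were also counted by the G2/M list after each was thinned to 5000 UMIs. G2/M-high cells, with at least 15 list UMIs (0.3%, a limit set after seeing the data), made up 37 of 106 (34.9%, 25.9 to 44.8), 103 of 247 (41.7%, 35.5 to 48.1), 29 of 54 (53.7%, 39.6 to 67.4) and 15 of 42 (35.7%, 21.6 to 52.0). Without thinning the shares were 34.0%, 41.3%, 53.7% and 38.1%. The intervals of control and IR overlapped in both hosts. Among WT-host control cells past the 4-fold hashtag margin the share was closer to that of WT-host IR, as given with the alternatives below. Between 10 and 19 list UMIs lay 13, 36, 5 and 3 cells. Among the other tumor cells 2.24%, 8.59%, 0.728% and 0.551% were G2/M-high. A list above a limit is a range of expression and not a phase of the cycle.

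The interferon difference was present in G2/M-high and in G2/M-low cells, here split by the share without thinning. In WT hosts the summed list had a log2 ratio of 2.19 (2.11 to 2.27) in G2/M-high cells and 1.24 (1.17 to 1.31) in G2/M-low cells. In cKO hosts the values were 0.81 (0.74 to 0.88) and 1.79 (1.74 to 1.85). The order of the 2 kinds of cells was thus opposite in the hosts, over 29 and 25 irradiated cells in WT and 16 and 26 in cKO hosts. Replication histones had ratios of −1.33 and −0.996 in G2/M-high cells and −0.69 and −0.08 in G2/M-low cells.

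No counted target of p53 passed the limit. The counts were none of 13 counted genes in WT hosts and none of 15 in cKO hosts, against 2.35% and 2.56% of all counted genes, so they are near the background and no result about these targets. Their medians were 0.02 and 0.15. Cdkn1a, the p21 inhibitor, was at 316, 306, 271 and 319 CPM, log2 ratios of −0.22 (−0.37 to −0.07) and 0.06 (−0.09 to 0.21). Bax, a death effector, was at 126, 131, 130 and 151 CPM, and Phlda3, an AKT repressor, at 162, 146, 144 and 186 CPM. Mdm2, the p53 ubiquitin ligase, was at 28.8, 29.1, 31.3 and 33.3 CPM. Trp53 itself lay between 192 and 222 CPM. Within G2/M-low cells, 2 of 8 counted targets were higher in WT hosts and none of 11 in cKO hosts, with no share over all genes of those cells beside them. The summed list there had log2 ratios of 0.40 (0.31 to 0.50) in WT and 0.28 (0.19 to 0.37) in cKO hosts. In G2/M-high cells the ratios were −0.06 and −0.001.

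DNA repair and matrix genes were read the same way. None of 9 and 14 counted repair genes passed, which is also near the background share, with medians of −0.03 and −0.04. Of 21 and 22 counted matrix genes, none passed in WT hosts, and 2 were higher and 1 lower in cKO hosts. The matrix medians were 0.17 and 0.15, but −0.34 and −0.24 in cluster 2 alone. Col4a1, a basement membrane collagen, was 26.7, 29.7, 35.4 and 80.4 CPM, and 68.5% of the UMIs in cKO-host IR came from 1 cell.

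**Figure D5:**
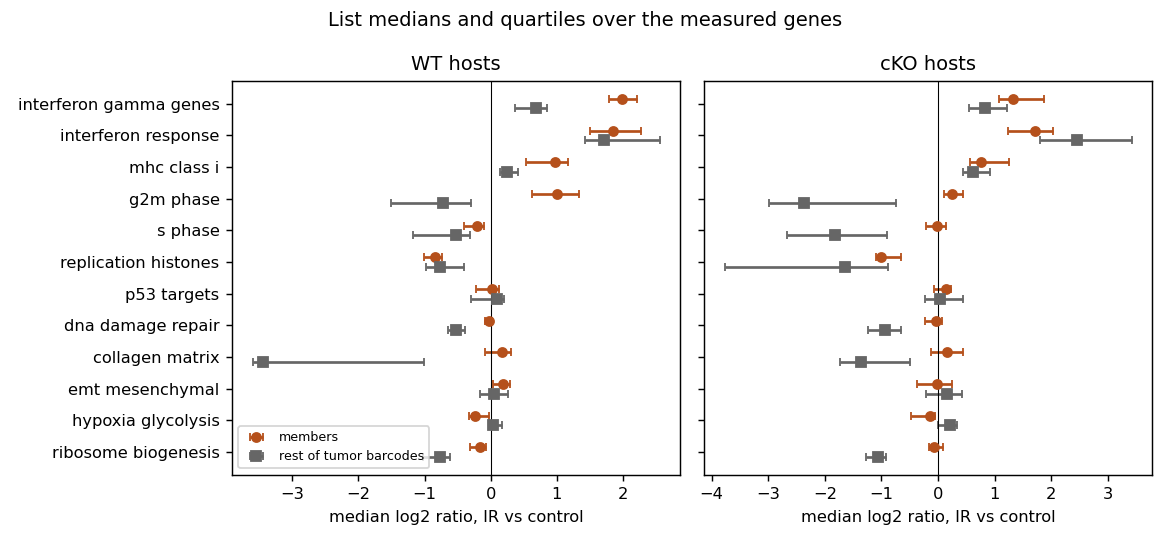
Median (symbol) and quartiles (bars) of the log2 ratio, IR against control, over the counted genes of 12 lists, in WT hosts (left) and cKO hosts (right), for immune-gene-low cells (circles) and the other tumor cells (squares). The interferon lists lie above 1 in immune-gene-low cells of both hosts, while the G2/M list is at 1.0 and 0.25 in them and at −0.72 and −2.37 in the other tumor cells.

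Hosts were compared within each treatment, which tells cells of 1 library apart by their hashtags alone. In control 26 of 7778 genes passed the limit (0.334%), 13 higher in cKO hosts (0.167%) and 13 lower (0.167%). The split was 104 and 39 with a 4-fold hashtag margin, and 25 and 54 at an immune limit of 0.2%. With IR 39 of 4401 passed (0.886%), 22 higher (0.5%) and 17 lower (0.386%). Here the limit of 0.2% gave 141 and 21, and cluster 1 alone 2 and 25, so the balance of directions between hosts depended on which cells were taken. Leukocyte genes were among them: in control 2 of 5 counted pan-leukocyte genes were lower in cKO hosts, and with IR 1 of 5 was higher. Without cluster 5 the counts were 20 and 22.

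The gene past the limit the same way in both treatments was Csf2, 1 of 4385 genes counted in both (0.0228%). Csf2 encodes GM-CSF, a growth factor of monocytes, macrophages and granulocytes, and lies on chromosome 11 (54247271 to 54249667). It was at 50.1 CPM (42.7 to 58.3) in WT-host control, 171 (162 to 181) in cKO-host control, 38.4 (30.3 to 48.1) in WT-host IR and 101 (84.6 to 119) in cKO-host IR. The log2 ratio of cKO to WT hosts was 1.77 (1.54 to 2.02) in control and 1.38 (0.98 to 1.81) with IR. The transcript came from few cells, 21 of 106, 59 of 247, 13 of 54 and 10 of 42, and the highest cell held 12.5% to 25.2% of its UMIs. Without the deepest 5% of cells the ratio with IR was 2.13. In the other tumor cells Csf2 was at 2.91 CPM.

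Other secreted factors stayed within the limit between hosts or passed it in 1 treatment. Ccl2, a monocyte attractant, was at 2820, 3786, 3419 and 2329 CPM, higher in cKO hosts by 0.42 in control and lower by 0.55 on the log2 scale with IR (−0.55, −0.61 to −0.49). Cxcl1, a neutrophil attractant, was at 2402, 2839, 2935 and 1641 CPM (0.24 and −0.84). Vegfa, an angiogenic factor, lay between 201 and 281 CPM, Csf1 between 79.8 and 119 CPM, and Tgfb1 between 54.6 and 65.9 CPM. Col1a1 passed the limit in control (log2 ratio 1.01), with 36.1% of its cKO-host UMIs in 1 cell, and was −0.43 with IR.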

How the data were processed

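The authors made the deposited matrices with Cell Ranger 6.0.1 against mm10 (names from the submitters' processing notes and the methods; the file headers name Cell Ranger 4) from 10x 3′ libraries. The deposited values are raw UMI counts per gene or hashtag and barcode, not filtered to cells, and their cell annotation was not used here. Tumor gene totals were 87703837 UMIs in control and 81601307 in IR.

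Members were chosen by fixed limits on UMIs, genes, mitochondrial share, hashtags and 4 immune genes. The members and gene lists were chosen with earlier results of these data known, and the Y-linked, histone, plasma cell, mature dendritic and mesenchymal factor lists were added later. Counts were summed per group and divided by total gene UMIs (CPM), with exact Poisson intervals. Log2 ratios used CPM after adding 1 depth-scaled UMI, with conditional binomial intervals. Genes needed 100 UMIs over the 2 groups, and a log2 ratio of 1 was the limit. With 1 pool a group no test was run. Named genes were the markers, the rule genes, the 8 members of each list with most UMIs, up to 12 per direction past the limit in both hosts, 8 per direction for hosts, 10 leading genes per cluster, and all measured cyclins, p53 targets and label genes; others named were chosen after their values were seen. Doublets were not called. Clustering used scanpy 1.11.5 (2000 variable genes, 20 principal components, 15 neighbours), and TMM used edgeR 4.0.16. The code was tested on simulated data. Alternatives covered the limits, hashtag margins, scalings, clusters and the other tumor matrix.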

Additional observations from a re-analysis of the deposited data

Results flagged for a closer look

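Blood was outside the comparisons above, yet 21 of 3123 blood control barcodes (0.672%, 0.417 to 1.03) also fell under the immune-gene limit. Hemoglobin genes made up 64.4% of their UMIs, and the fibroblast list had 15 UMIs in all of them together. In blood IR 1 of 2551 barcodes fell under it, led by the antibody genes Igkc, Igha and Jchain.

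Il1b, an inflammatory cytokine of myeloid cells, went in opposite directions with IR in the hosts. It was at 116, 37.2, 56.6 and 81.8 CPM in WT-host control, cKO-host control, WT-host IR and cKO-host IR, a log2 ratio of −1.04 in WT hosts and 1.13 in cKO hosts, and the difference between the hosts was not tested. A single cell held 48.7% of the UMIs in cKO-host IR and 32.3% in WT-host control. Without cluster 5 the ratios were 0.78 and 0.27.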

How the results depend on the processing

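No paired analysis was possible because each group was 1 pooled sample and no result comes from a test. Precision is limited by 42 to 106 cells in 3 of the groups and by single cells that hold much of a gene's UMIs. Of the alternative values of group results, 293 kept their direction and size and 57 did not, and the causes were not tested. Over the alternatives the interferon response medians stayed between 1.06 and 2.92 in WT hosts and between 0.97 and 1.92 in cKO hosts, and the G2/M medians between 0.06 and 1.24 and between 0.08 and 0.36, while the S phase, p53 and matrix medians crossed 0. In what follows, genes are those past the limit and list values are median log2 ratios with IR. With a 4-fold hashtag margin both ways 24 WT-host control cells remained, 50% of them G2/M-high, with 83 genes for IR in WT hosts, 143 for hosts in control and a WT G2/M median of 0.48. An immune limit of 0.05% gave 24 genes for hosts with IR. A limit of 0.2% gave 138 WT-host control and 82 cKO-host IR cells, 447 genes for IR in cKO hosts, 79 and 162 for hosts in control and IR, and cKO medians of 1.27 (MHC class I), 0.077 (G2/M) and 0.45 (p53). Without the deepest 5% of cells the WT G2/M median was 1.24. Without cluster 5 there were 22 genes for hosts with IR. Cluster 1 alone gave 87 genes for IR in cKO hosts, WT medians of 2.92 (interferon response), 2.91 (interferon gamma), 1.25 (MHC class I), 0.38 (G2/M), −0.58 (S phase) and 0.51 (matrix), and cKO medians of 0.97 (interferon response), 0.47 (MHC class I), 0.093 (G2/M) and −0.19 (p53). Cluster 2 alone gave 42 and 94 genes for IR in WT and cKO hosts and 44 for hosts in control, WT medians of 1.06 (interferon response), 0.055 (G2/M), 0.30 (S phase) and −0.34 (matrix), and cKO medians of 0.13 (S phase) and −0.24 (matrix). Cluster 3 alone gave 15 genes for hosts in control. With each cell weighted equally there were 330 genes for IR in cKO hosts and 44 and 91 for hosts in control and IR, with WT medians of 1.30 (interferon response), 1.20 (G2/M) and −0.070 (S phase) and a cKO G2/M median of 0.092. A minimum of 20 UMIs gave 502, 842, 275 and 325 genes for IR in WT hosts, IR in cKO hosts, hosts in control and hosts with IR, and no minimum gave 2404, 3454, 2085 and 2315. Counts of the same barcodes in the other tumor matrix, an alternative chosen after seeing the data, gave 97 genes for IR in cKO hosts, 9 and 21 for hosts, and a cKO S phase median of −0.25. A resolution of 1.0 gave 11 clusters. Leaving out cells whose barcode held at least 500 UMIs in the other tumor matrix left no cell and so no value. Among single genes 5 values reversed: H2-Aa for hosts with IR at the 0.2% limit (1.28), Il1b for IR in WT hosts without cluster 5 (0.78) and in cluster 1 alone (0.94), and Il1b for hosts in control in the same settings (0.15 and 0.21).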

Other observations

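Hypoxia and glycolysis genes were at a similar level in immune-gene-low cells (11885 CPM) and the other tumor cells (11316 CPM), and varied by cluster. The 24-gene list summed to 16340 CPM in cluster 3, led by Hspa1b, Cryab and Bnip3. It summed to 13268 CPM in cluster 5 and to between 10836 and 11246 CPM in clusters 1, 2 and 4. With IR none of 22 counted genes passed the limit in WT hosts and 1 was lower in cKO hosts, with medians of −0.23 and −0.14. These counts are near the shares of all counted genes (2.35% and 2.56%) and are no result about this list.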
